A study of Mus musculus with 8 samples.

Results

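Lysosomes break down proteins, lipids and sugars, and autophagy is the route by which a cell delivers its own contents to them. The gene set described here holds 43 genes of these systems among the 56691 gene IDs of the deposited count table. They are identified in the table by gene symbol. The set comprises 24 lysosomal genes (cathepsins, glycosidases, other hydrolases, cofactors and membrane proteins), 17 autophagy genes (the ATG8 family, initiation and elongation genes, cargo receptors) and the transcription factor genes Tfeb and Tfe3. All 43 were found in the table and passed the filter on low counts.

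Ribosome-associated messenger RNA was sequenced from the ventral tegmental area (VTA), a midbrain region with dopamine neurons, of mice. The knockdown group carried Ogt flox+/Y (4 libraries, replicates 2, 3, 4 and 5) and the control group carried Ogt flox-/Y (4 libraries, replicates 3, 4, 5 and 6), so every animal has a Y chromosome. Both groups received the same pair of adeno-associated viruses in the VTA. AAV-TH-Cre drives Cre recombinase from the tyrosine hydroxylase promoter, and AAV-Flex-NBL10 carries the HA-tagged ribosome-binding NBL10 protein used for the enrichment. Ogt encodes O-GlcNAc transferase, which attaches a single sugar to serines and threonines of proteins, and the comparison asks which signalling pathways change in dopamine neurons when it is reduced. Age, strain, the time after injection and whether animals were pooled are not given in the sources used here. The labels number the replicates without saying that each is a separate animal, and p-values then describe only the spread between these libraries, which may be technical.

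Lysosomal hydrolases are made in the endoplasmic reticulum and carry a mannose 6-phosphate tag that takes them to an acidic organelle bounded by heavily glycosylated membrane proteins such as LAMP1 and LAMP2. In autophagy, the ULK kinases and a Beclin 1 lipid kinase complex start a membrane that grows around cargo, proteins of the ATG8 family are conjugated to that membrane, and cargo receptors such as p62 link ubiquitinated material to ATG8. The autophagosome then fuses with a lysosome. Neurons depend on both systems because they do not divide, and inherited loss of many of these enzymes causes storage disease with neurodegeneration. Microglia, the phagocytes of the brain, are rich in lysosomal enzymes.

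Libraries held 49802305 to 147747191 counted reads, and a count of 3 corresponds to 0.0203 to 0.0602 CPM of the unscaled library total, for counting error only. CPM values of genes are counts relative to library size after scaling by trimmed mean of M values. Values by library are given throughout in the order control replicates 3, 4, 5 and 6 and knockdown replicates 2, 3, 4 and 5. Ogt stood at 159, 118, 118 and 108 CPM in the controls and at 74.4, 47.2, 41.7 and 36 CPM in the knockdowns. It was lower in every knockdown library, by 2.53-fold (log2 fold change -1.34, SE 0.23, edgeR adjusted p = 0.00243). Markers of dopamine neurons were present in all libraries, and none of the 12 was at 0 in any of them, but their summed level was 1525 to 3429 CPM in controls and 468 to 735 CPM in knockdowns. Markers of other cells were present too. The summed level of 14 microglia markers was 31.8 to 58.2 CPM in controls and 66.2 to 193 CPM in knockdowns, and that of 10 astrocyte markers was 1510.2 to 5719 CPM and 9934 to 13926 CPM. In the astrocyte sum, Gfap alone made up 1162 CPM in controls and 7270.4 CPM in knockdowns on average. Control replicate 3 stood apart with 1016 CPM over 10 vascular markers, against 15 to 23.7 CPM in the other controls. It also had the highest dopamine neuron sum and the lowest astrocyte sum. Knockdown replicate 3 stood apart for several genes of the set, and the set is therefore also described without both libraries numbered 3.

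Of the 43 genes, 7 were higher in knockdown, 8 were lower and 28 did not pass an adjusted p of 0.05. The 7 are 16.3% of the set against 13.4% of all genes tested, and the 8 are 18.6% against 15.1%, so neither share stands far from the background. All 7 that rose were lysosomal, namely Ctsd, Ctsl, Tpp1, Npc2, Lamp1, Lamp2 and Scarb2. Of the 8 that fell, 4 were lysosomal (Gaa, Neu1, Psap and Mcoln1) and 4 belonged to autophagy (Gabarapl1, Gabarapl2, Sqstm1 and Optn). The 24 lysosomal genes had a median log2 fold change of 0.21 with 29.2% higher and 16.7% lower. The 17 autophagy genes had a median of -0.12 with 0 higher and 23.5% lower by edgeR, and 2 of them (Wipi1 and Wipi2) were higher at an unadjusted p under 0.05. DESeq2 called 1 autophagy gene, Wipi2, higher, and limma-voom called 0. The median over all 19912 genes tested was 0.002. The difference between the lysosomal and the autophagy genes was not tested as such.

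The counts depended on single libraries. The 7 that rose became 4 without control replicate 4 and 4 without knockdown replicate 4, all lysosomal. The 8 that fell became 5 without control replicate 5, control replicate 6 or knockdown replicate 4, and 4 without knockdown replicate 2. The 4 lysosomal genes that fell became 2 without control replicate 5, control replicate 6 or knockdown replicate 4, and 1 without knockdown replicate 2. Counted by libraries that do not overlap between groups, 8 members were higher and 10 were lower, against 17.1% and 18% of all genes tested.

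**Figure D1:**
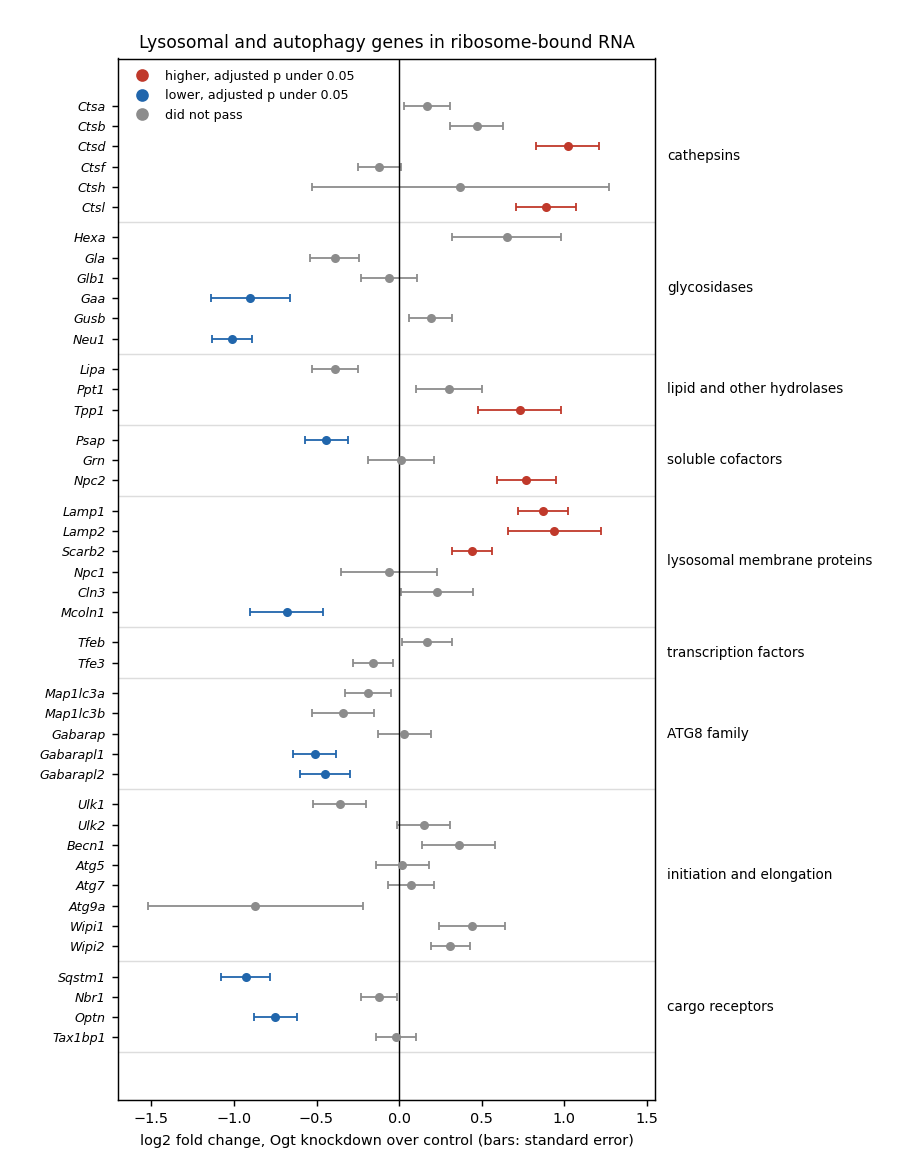
Log2 fold change of each of the 43 genes, Ogt knockdown (n = 4) over control (n = 4), on the horizontal axis, with bars for the standard error of the edgeR fit, grouped by role. The 7 genes that rose (red) lie among the lysosomal groups, and the 8 that fell (blue) are split between lysosomal and autophagy groups.

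Markers of most cell types moved with the groups. Of 14 microglia markers 10 rose, of 10 astrocyte markers 3 rose and of 12 oligodendrocyte markers 6 rose. All 10 astrocyte markers had a positive log2 fold change (median 1.13). Of 10 vascular markers 0 passed, and all 10 had a negative log2 fold change (median -2.45). Their sum was 38.9 to 63.7 CPM in knockdowns, above that of every control but replicate 3, which had 1016 CPM. Of 12 dopamine neuron markers 11 fell, and of 10 markers of neurons in general 9 fell, with a sum of 8444 to 9119 CPM in controls and 3332 to 4109.9 CPM in knockdowns. In bulk libraries of ribosome-enriched RNA, fewer cells of a type, less RNA per cell and a difference in the enrichment itself cannot be told apart. A score of non-neuronal markers, averaged over the microglia, astrocyte, oligodendrocyte and vascular lists, ran from -0.716 to -0.242 in controls and from 0.195 to 0.885 in knockdowns. With it as a covariate edgeR called 0 of 19912 genes, 2752 of them having an unadjusted p under 0.05, 5 of those in the set. The lysosomal median was then -0.24 and the autophagy median 0.07. Of the 15 genes called without the score, 7 had a larger log2 fold change with it, among them Lamp1 (1.17) and Neu1 (-1.12), and 7 a smaller one, among them Ctsd (0.71), Sqstm1 (-0.91) and Gabarapl1 (-0.17). Gabarapl2 turned sign. Because the score separates the groups, the part of cell types in the changes of the set and the part of the knockdown cannot be told apart.

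Summed over the set, the lysosomal genes overlapped between groups and the autophagy genes did not. The 24 lysosomal genes summed to 5680.1 to 6684 CPM in controls and 6029 to 6937 CPM in knockdowns, while the 17 autophagy genes summed to 4549 to 4725 CPM and 3206 to 4023 CPM. In the autophagy sum, Sqstm1 alone made up 1045 and 549 CPM on average and Gabarapl1 1011 and 712 CPM. Of the 17 genes, 5 had every knockdown library below every control and 1 had every knockdown library above. Among all genes tested, 18% lay below in this way and 17.1% above. Within the lysosomal genes, the cathepsins summed to 1366 to 1679 CPM in controls and 2072 to 2591 CPM in knockdowns. The 6 membrane proteins summed to 635 to 777 CPM and 1033 to 1234 CPM. The glycosidases went the other way, with 955 to 1815 CPM in controls and 644 to 822 CPM in knockdowns, of which Gaa alone made up 1003 and 537 CPM on average. The sums of the other 5 glycosidases overlapped, with 185 to 294 CPM and 194 to 257 CPM. The cofactors were also lower in knockdowns, with 2471 to 2841 CPM and 1869 to 2211 CPM, a sum in which Psap alone made up 2502 CPM of the control mean.

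**Figure D2:**
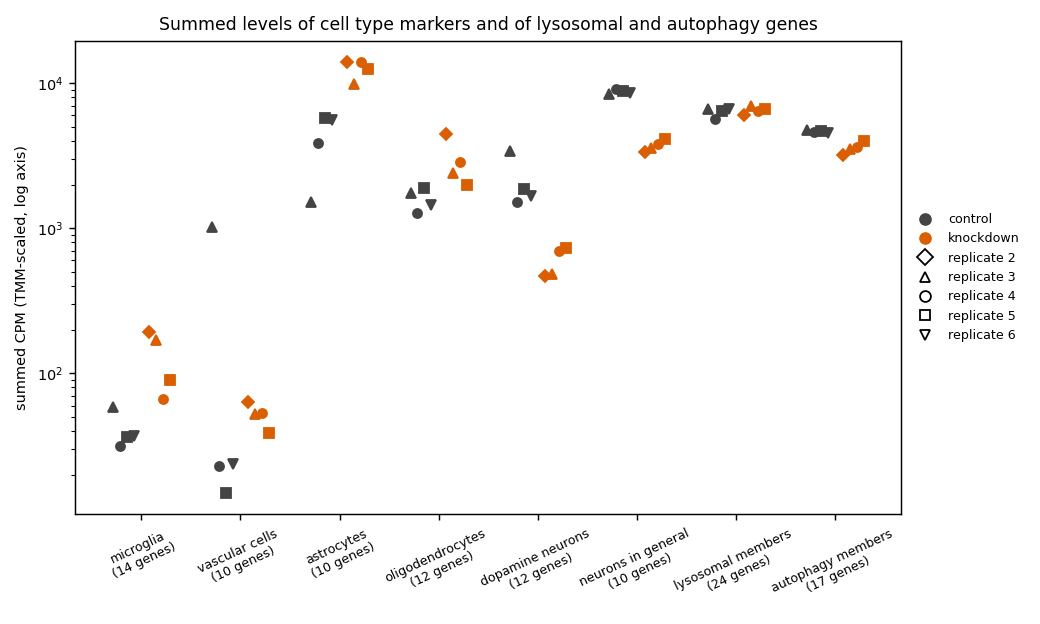
Summed CPM per library on a log axis for 6 lists of cell type markers and for the lysosomal and autophagy genes, with controls in grey, knockdowns in orange and the shape giving the replicate number. Lysosomal sums overlap between groups (5680.1 to 6684 against 6029 to 6937 CPM), while autophagy and neuron sums are lower in every knockdown library and control replicate 3 stands alone in the vascular list. In controls Sqstm1 and Gabarapl1 are the largest parts of the autophagy sum.

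Levels between genes were compared per kilobase of exon, here and below over all exon bases. Reads in overlapping genes were not counted, so genes that share many exon bases are understated and their ranks are uncertain. Among these are Gabarapl1 (28.3% of exon bases in other genes), Ctsd (34.4%) and Becn1 (43.9%). Psap was the most abundant in both groups, at 912 CPM per kb in controls and 670.5 in knockdowns, followed by Map1lc3a (619.9 and 543) and Gabarapl1 (502 and 354). Sqstm1 was at rank 4 in controls with 311 CPM per kb and at rank 7 in knockdowns with 164. Lamp1 went the other way, from rank 8 with 139.6 CPM per kb to rank 4 with 255, and Ctsd from rank 10 with 105 to rank 5 with 212. Ctsh was the least abundant, at 0.967 and 1.25 CPM per kb.

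Tfeb and Tfe3 encode related transcription factors that move from the lysosomal surface to the nucleus when nutrient signalling is low and bind promoters of lysosomal and autophagy genes. Neither message passed the test. Tfeb stood at 16.5, 11.5, 12.5 and 13 CPM in controls and 14.3, 15.5, 15.8 and 14.7 CPM in knockdowns (log2 fold change 0.17, SE 0.15, edgeR adjusted p = 0.439). The groups overlapped, with control replicate 3 above every knockdown library. Tfe3 had 45.5, 49, 46.7 and 49.9 CPM in controls and 38.7, 37.9, 49.7 and 44.9 CPM in knockdowns (log2 fold change -0.16, SE 0.12, edgeR adjusted p = 0.378). Here knockdown replicates 2, 3 and 5 were below the controls and replicate 4 was within them. Activity of these factors is set largely by phosphorylation and location, which these counts do not measure.

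The factors bind an E-box, CACGTG, and the lysosomal version of the site often carries a T before it. Promoters of RefSeq (build GRCm38.p6, 250 bases before to 50 after the start of a gene) were searched for CACGTG, which reads alike on both strands, and for TCACGTG on either strand, every match of which also holds CACGTG. Of the 43 genes, 38 matched an entry (all but Ctsb, Ctsh, Npc1, Map1lc3a and Becn1). Some genes have several entries, and a gene counts as holding a motif where any entry does. CACGTG was found for 12 of the 38 genes (31.6%), for 10 of 21 lysosomal genes (47.6%) and for 2 of 15 autophagy genes (13.3%), Atg5 and Atg7. It was found for 8.09% of the 27025 genes with a promoter in the table and for 10.9% of such genes among those tested. TCACGTG was found for 9 of the 38 (23.7%), for 4.29% of all 27025 and for 6.25% of such genes among those tested. Genes with CACGTG were spread over the calls, with 3 of the 7 genes that rose, 2 of the 8 that fell and 7 of the 23 with a promoter that did not pass. Among the lysosomal genes the counts were 3 of 7 that rose, 2 of 4 that fell and 5 of 10 that did not pass.

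The following promoters are shown because they hold the motif in genes that moved in opposite directions, Lamp1 and Ctsd higher and Gaa and Mcoln1 lower, with Sqstm1 as a gene that fell and has no CACGTG in this window. Capitals mark CACGTG, and each runs 5′ to 3′ on the strand of its gene. In GRCm38.p6 they lie at chr8:13158911-13159210, plus strand (Lamp1), chr7:142387778-142388077, minus strand (Ctsd), chr11:119267713-119268012, plus strand (Gaa), chr8:3500269-3500568, plus strand (Mcoln1) and chr11:50210771-50211070, minus strand (Sqstm1).
Lamp1: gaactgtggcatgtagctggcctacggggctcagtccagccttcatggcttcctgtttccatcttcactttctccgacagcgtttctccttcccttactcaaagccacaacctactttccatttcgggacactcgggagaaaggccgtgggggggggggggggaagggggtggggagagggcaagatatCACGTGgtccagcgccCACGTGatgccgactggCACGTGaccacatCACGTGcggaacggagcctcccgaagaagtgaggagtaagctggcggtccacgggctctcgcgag
Ctsd: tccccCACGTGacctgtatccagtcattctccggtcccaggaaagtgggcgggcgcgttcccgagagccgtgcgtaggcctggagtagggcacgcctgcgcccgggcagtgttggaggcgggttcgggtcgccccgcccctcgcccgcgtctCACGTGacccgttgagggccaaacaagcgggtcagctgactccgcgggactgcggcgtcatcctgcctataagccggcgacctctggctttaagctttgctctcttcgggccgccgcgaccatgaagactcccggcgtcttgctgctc
Gaa: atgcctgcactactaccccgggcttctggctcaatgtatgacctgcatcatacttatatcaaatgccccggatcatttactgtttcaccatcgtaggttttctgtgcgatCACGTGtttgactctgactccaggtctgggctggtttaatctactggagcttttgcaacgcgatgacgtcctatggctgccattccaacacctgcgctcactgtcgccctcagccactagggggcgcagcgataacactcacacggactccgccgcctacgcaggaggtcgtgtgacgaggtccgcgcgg
Mcoln1: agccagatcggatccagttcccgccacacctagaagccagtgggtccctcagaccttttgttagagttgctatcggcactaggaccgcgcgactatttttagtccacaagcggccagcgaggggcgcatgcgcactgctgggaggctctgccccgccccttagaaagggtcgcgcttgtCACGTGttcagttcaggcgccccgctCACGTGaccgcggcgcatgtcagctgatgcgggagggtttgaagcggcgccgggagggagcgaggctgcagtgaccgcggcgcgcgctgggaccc
Sqstm1: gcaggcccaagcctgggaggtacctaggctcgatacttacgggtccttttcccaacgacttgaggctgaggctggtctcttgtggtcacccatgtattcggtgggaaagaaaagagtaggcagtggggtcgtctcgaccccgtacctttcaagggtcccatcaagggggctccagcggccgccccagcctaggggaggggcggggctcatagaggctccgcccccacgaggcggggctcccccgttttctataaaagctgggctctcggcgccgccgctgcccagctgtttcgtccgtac

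Lamp1 held 4 copies, whose first bases lie 61, 45, 28 and 15 bases before the start of the gene. Mcoln1 held copies 71 and 45 bases before it, Ctsd copies 245 and 98 bases before it, and Gaa 1 copy 140 bases before it. A match is a description of the letters and was not measured as binding. Copies within 100 bases before the start were held by Lamp1 and Ctsd, which rose, and by Mcoln1, which fell. They were also held by Ctsa, Ctsf, Glb1 and Atg5, which did not pass. Whether the motif bears on the changes was not tested.

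Cathepsins are the proteases of the lysosome, and 2 of the 6 rose, with a median log2 fold change of 0.42 over the group. Among all genes tested 13.4% rose. Ctsd encodes cathepsin D, the main aspartic protease of the lysosome. It stood at 273, 205, 270.4 and 237 CPM in controls and at 472, 682, 404 and 435 CPM in knockdowns. Every knockdown library was above every control library, with knockdown replicate 3 the highest. The mean went from 246 ± 32.1 to 498 ± 126 CPM (SD, n = 4 each), a 2.02-fold rise (log2 fold change 1.02, SE 0.19, edgeR adjusted p = 0.00341). Its interval in the table is chr7:141929648-141941775 in GRCm39. Of its exon bases 34.4% lie in other genes, with the largest overlap in Gm49369 on the same strand, and reads there were not counted.

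Ctsl encodes cathepsin L, a cysteine protease. Its values were 158, 156, 189 and 178 CPM in controls and 315, 436, 263 and 252 CPM in knockdowns. The groups were again apart, and knockdown replicate 3 was again the highest. The rise was 1.86-fold (log2 fold change 0.89, SE 0.18, edgeR adjusted p = 0.00574). The microglia markers summed to 193, 170.1, 66.2 and 90 CPM in the knockdown libraries, and single markers differed in order. Cx3cr1 had 8.8, 8.25, 4.26 and 3.96 CPM there, highest in replicate 2, and C1qa had 39.2, 60.7, 10.3 and 18.1 CPM, highest in replicate 3. The part of microglia in the Ctsd and Ctsl values was not tested. Both rises held whichever library was left out, with highest adjusted p of 0.0159 for Ctsd and 0.0253 for Ctsl. The Ctsl value carries some uncertainty, since 26.8% of its exon bases lie in other genes and 22 genes hold a near copy of part of it, the longest of 191 bases.

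Ctsb encodes cathepsin B and was the most abundant cathepsin per length in controls, at 150.2 CPM per kb. It had 670.4, 878, 1019 and 1067 CPM in controls and 1223, 1263, 1186 and 1378 CPM in knockdowns. The groups did not overlap, but the gene missed the threshold (log2 fold change 0.47, SE 0.16, edgeR adjusted p = 0.0523). It passed with an adjusted p of 0.0209 by DESeq2, 0.0343 by limma-voom, 0.0234 with upper quartile scaling in edgeR and 0.0308 with a stricter filter in edgeR. Ctsh, an aminopeptidase that microglia also express, had 14, 0.501, 1.74 and 1.12 CPM in controls and 8, 7.06, 3.09 and 4.3 CPM in knockdowns. Control replicate 3 was above all other libraries and the remaining controls were below all knockdowns. The gene did not pass (log2 fold change 0.37, SE 0.90, edgeR adjusted p = 0.793), and without control replicate 3 its log2 fold change was 2.29 (edgeR adjusted p = 0.00366). Ctsa, which encodes the protective protein of the complex with GLB1 and NEU1, and Ctsf overlapped between groups (log2 fold changes 0.17 and -0.12, edgeR adjusted p = 0.385 and 0.533).

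Glycosidases trim sugar chains from glycolipids, glycoproteins and glycogen. Of the 6, 2 fell, and the median log2 fold change was -0.22. Among all genes tested 15.1% fell. Neu1 encodes the lysosomal sialidase, whose absence causes sialidosis. It had 93.3, 72.2, 75.1 and 76.1 CPM in controls and 36.2, 40.6, 40.8 and 39.1 CPM in knockdowns. The groups were far apart, and the 4 knockdown libraries lay close together. Group means were 79.1 ± 9.56 and 39.2 ± 2.13 CPM (SD, n = 4 each), a 2.02-fold fall (log2 fold change -1.01, SE 0.12, edgeR adjusted p = 0.000517). This was the smallest p of the 43 genes, and the call held without any library (highest adjusted p 0.00274). The gene lies at chr17:35150229-35154929 in GRCm39 and shares no exon base with another gene.

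Gaa encodes acid alpha-glucosidase, the enzyme of glycogen breakdown that is missing in Pompe disease. It had 1521, 771, 809 and 913 CPM in controls and 439, 458, 624 and 626 CPM in knockdowns. Control replicate 3 was far above the other controls, and every knockdown library was below every control. The fall was 1.87-fold (log2 fold change -0.90, SE 0.24, edgeR adjusted p = 0.0183). Omitting knockdown replicate 2 raised the adjusted p to 0.0516, past the threshold, and the log2 fold change was -0.63 without control replicate 3 (edgeR adjusted p = 0.014).

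Hexa encodes the alpha subunit of beta-hexosaminidase, which degrades the ganglioside GM2. Its values were 108, 39.1, 47 and 47.1 CPM in controls and 88.1, 136, 78.9 and 77.7 CPM in knockdowns. Only control replicate 3 lay within the knockdown range. The gene did not pass with all 8 libraries (log2 fold change 0.65, SE 0.33, edgeR adjusted p = 0.167) and passed without control replicate 3 (log2 fold change 1.09, edgeR adjusted p = 0.00249). Gla, which encodes alpha-galactosidase A, had 18.8 to 24.7 CPM in controls and 15.3 to 19 CPM in knockdowns (log2 fold change -0.39, SE 0.15, edgeR adjusted p = 0.0774). Glb1 (beta-galactosidase) and Gusb (beta-glucuronidase) had log2 fold changes of -0.06 and 0.19 with overlapping groups (edgeR adjusted p = 0.823 and 0.305).

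Among the remaining hydrolases, Tpp1 rose. It encodes tripeptidyl peptidase 1, a protease whose loss causes a neuronal ceroid lipofuscinosis. The values were 36.9, 63.9, 77 and 75.6 CPM in controls and 114, 69.9, 118 and 119 CPM in knockdowns. The replicates numbered 3 were the lowest of each group, and knockdown replicate 3 lay within the control range. The rise was 1.66-fold (log2 fold change 0.73, SE 0.25, edgeR adjusted p = 0.0485). The call ended when control replicate 4, 5 or 6 or knockdown replicate 2, 4 or 5 was omitted, with adjusted p between 0.0552 and 0.134, and when low counts were not filtered (edgeR adjusted p = 0.0868).

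Ppt1 encodes palmitoyl-protein thioesterase 1, which removes fatty acids from proteins. It had 71.7, 113, 131 and 119 CPM in controls and 141, 99.9, 146 and 147 CPM in knockdowns (log2 fold change 0.30, SE 0.20, edgeR adjusted p = 0.296). Here too both replicates numbered 3 were the lowest of their group. Lipa encodes lysosomal acid lipase, which frees cholesterol from its esters. It had 28.7, 25.7, 26.9 and 28.6 CPM in controls and 22, 16.5, 22.9 and 22.4 CPM in knockdowns, apart but not past the threshold (log2 fold change -0.39, SE 0.14, edgeR adjusted p = 0.0629).

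The soluble cofactors moved in opposite directions. Psap encodes prosaposin, the precursor of the saposins that present glycolipids to their hydrolases. It stood at 2535, 2307, 2503 and 2662 CPM in controls and 1630.3, 1861, 1929 and 1938 CPM in knockdowns. Every knockdown library was lower, with replicate 2 the lowest. The fall was 1.36-fold (log2 fold change -0.44, SE 0.13, edgeR adjusted p = 0.0276), and omitting control replicate 4, 5 or 6 or knockdown replicate 2 or 4 ended the call, with adjusted p between 0.052 and 0.0987. So did upper quartile scaling (edgeR adjusted p = 0.0659) and no filter on low counts (edgeR adjusted p = 0.0566).

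Npc2 encodes the soluble protein that hands cholesterol to NPC1 in the lysosomal membrane. It had 98.7, 121, 139 and 126 CPM in controls and 182, 285, 172 and 184 CPM in knockdowns. Every knockdown library was higher, and replicate 3 was far above the other knockdowns. The rise was 1.70-fold (log2 fold change 0.77, SE 0.18, edgeR adjusted p = 0.0126), and the call held without any single library (highest adjusted p 0.0425). Its partner Npc1 had 18.9 to 28.5 CPM in controls and 10.8 to 31.4 CPM in knockdowns (log2 fold change -0.06, SE 0.29, edgeR adjusted p = 0.902). Grn encodes progranulin, which reaches the lysosome partly together with prosaposin. It had 86.6, 42.4, 51 and 53.9 CPM in controls and 57.1, 64.7, 56.3 and 57.9 CPM in knockdowns, with control replicate 3 the highest (log2 fold change 0.01, SE 0.20, edgeR adjusted p = 0.972).

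Among the 6 membrane proteins 3 rose and 1 fell, with a median log2 fold change of 0.33. The shares of all genes tested were 13.4% and 15.1%. Lamp1 and Lamp2 encode the most abundant glycoproteins of the lysosomal membrane. Lamp1 had 302, 350.4, 428 and 413 CPM in controls and 607, 796, 666 and 662 CPM in knockdowns. The groups were far apart, with knockdown replicate 3 the highest and control replicate 3 the lowest. The mean went from 373 ± 58.1 to 683 ± 80.4 CPM (SD, n = 4 each), by 1.83-fold (log2 fold change 0.87, SE 0.15, edgeR adjusted p = 0.00279). That call held without any library (highest adjusted p 0.0167). The gene lies at chr8:13209161-13225338 in GRCm39, and 9.31% of its exon bases lie in other genes, with the largest overlap in Grtp1 on the opposite strand.

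Lamp2, which also serves chaperone-mediated autophagy, had 31.9, 72.5, 90.7 and 82.4 CPM in controls and 135, 158, 129 and 113 CPM in knockdowns. Every knockdown library was higher, and the replicates numbered 3 were the extremes of both groups. The rise was 1.93-fold (log2 fold change 0.94, SE 0.28, edgeR adjusted p = 0.028). Omitting control replicate 4 or knockdown replicate 2, 3 or 4 ended that call, with adjusted p between 0.0641 and 0.0751, as did no filter on low counts (edgeR adjusted p = 0.0672). Scarb2 encodes LIMP-2, the receptor that carries beta-glucocerebrosidase to lysosomes. It had 156, 133, 168 and 163 CPM in controls and 204, 216, 221 and 198 CPM in knockdowns. Here all knockdowns were above all controls, by 1.36-fold (log2 fold change 0.44, SE 0.12, edgeR adjusted p = 0.0199). The Scarb2 call ended on omission of control replicate 4, control replicate 6 or knockdown replicate 4, with adjusted p between 0.0527 and 0.0922, and with no filter on low counts (edgeR adjusted p = 0.0805).

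Mcoln1 encodes TRPML1, the calcium channel of the lysosome. It was the membrane protein gene that fell, with 112, 52.6, 58.3 and 59.4 CPM in controls and 42.4, 41.5, 44.7 and 47.2 CPM in knockdowns. Control replicate 3 was far above the rest, and the other controls were slightly above the knockdowns. The fall was 1.61-fold (log2 fold change -0.68, SE 0.22, edgeR adjusted p = 0.0452). Without control replicate 3 the log2 fold change was -0.37 (edgeR adjusted p = 0.0227). Omission of control replicate 5 or 6 or of any knockdown library ended the call, with adjusted p between 0.0507 and 0.0952. So did limma-voom (adjusted p = 0.056), and in edgeR upper quartile scaling (0.0808) and the stricter filter (0.0511). Near copies of up to 400 bases in 5 genes make the count uncertain. Cln3, a membrane protein lost in juvenile Batten disease, had 7.91 to 15.2 CPM in controls and 10.3 to 13.3 CPM in knockdowns (log2 fold change 0.23, SE 0.22, edgeR adjusted p = 0.482).

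**Figure D3:**
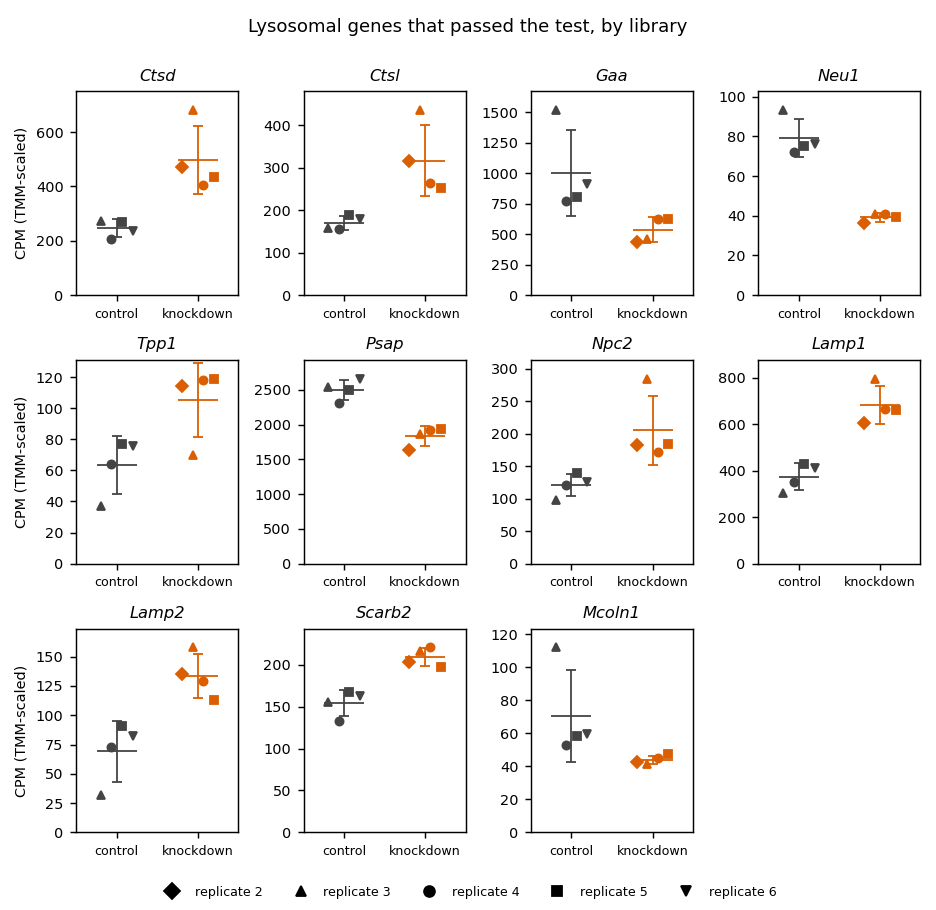
CPM in each library for the 11 lysosomal genes that passed the test, with controls in grey and knockdowns in orange, the shape giving the replicate number, horizontal lines for the group mean and bars for the SD (n = 4). Knockdown libraries lie above the controls for Ctsd, Ctsl, Npc2, Lamp1, Lamp2 and Scarb2, below them for Gaa, Neu1, Psap and Mcoln1, and Tpp1 overlaps through knockdown replicate 3.

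The ATG8 family is conjugated to the growing autophagosome membrane, and 2 of its 5 members fell while 0 rose, also at an unadjusted p under 0.05 and with DESeq2 and limma-voom. The median log2 fold change of the family was -0.34. By edgeR 15.1% of all genes tested fell and 13.4% rose. Gabarapl1 had 1046, 1013, 999.6 and 986 CPM in controls and 615, 681, 723 and 830.4 CPM in knockdowns. The controls were close together and every knockdown library was lower. The fall was 1.42-fold (log2 fold change -0.51, SE 0.13, edgeR adjusted p = 0.017). A share of 28.3% of its exon bases lies in other genes, with the largest overlap in 1700101I11Rik on the opposite strand. Gabarapl2 had 247, 329, 322 and 330.3 CPM in controls and 179, 232, 226 and 260.0 CPM in knockdowns. The groups overlapped through control replicate 3, the lowest control. The fall was 1.37-fold (log2 fold change -0.45, SE 0.15, edgeR adjusted p = 0.0486). It missed the threshold when control replicate 4, 5 or 6 or knockdown replicate 2, 3 or 4 was omitted, with adjusted p between 0.0543 and 0.127. It also did so with RLE scaling (edgeR adjusted p = 0.064) and upper quartile scaling (edgeR adjusted p = 0.0921). Near copies in 3 genes make this count uncertain.

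Map1lc3a and Map1lc3b encode LC3A and LC3B, the ATG8 proteins used most as markers of autophagosomes. Map1lc3a, the most abundant of the family per length, had 803, 715, 733 and 677 CPM in controls and 522, 701, 613 and 731 CPM in knockdowns. The groups overlapped (log2 fold change -0.19, SE 0.14, edgeR adjusted p = 0.347). Map1lc3b had 285, 372, 417 and 399 CPM in controls and 284, 207, 323 and 351 CPM in knockdowns, with replicate 3 the lowest of each group (log2 fold change -0.34, SE 0.19, edgeR adjusted p = 0.203). That count is uncertain too, since 64 genes hold a near copy of part of it. Gabarap had 237 to 329.6 CPM in controls and 253 to 375 CPM in knockdowns (log2 fold change 0.03, SE 0.16, edgeR adjusted p = 0.913).

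None of the 8 initiation and elongation genes passed by edgeR, 3 of them (Ulk1, Wipi1 and Wipi2) having an unadjusted p under 0.05, and DESeq2 called Wipi2. Ulk1 encodes the kinase that starts autophagy. It had 82.2, 95.6, 95.7 and 90.2 CPM in controls and 73, 49.1, 80.7 and 79.6 CPM in knockdowns, all lower (log2 fold change -0.36, SE 0.16, edgeR adjusted p = 0.119). Wipi2 encodes a protein that binds the lipid made by the Beclin 1 complex and recruits the conjugation machinery. It had 144, 139, 144 and 140.0 CPM in controls and 171, 151, 193 and 186 CPM in knockdowns. Every knockdown library was higher, although the gene missed the threshold (log2 fold change 0.31, SE 0.12, edgeR adjusted p = 0.0701). Wipi1, a related gene, had 13.5, 16.3, 22.8 and 20.2 CPM in controls and 31, 21.3, 24.8 and 21.5 CPM in knockdowns, which overlapped (log2 fold change 0.44, SE 0.20, edgeR adjusted p = 0.124).

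Atg9a encodes the lipid scramblase of the vesicles that seed the autophagosome. It had 32.8, 39.9, 39.9 and 44.4 CPM in controls and 26.2, 1.45, 30.6 and 27.6 CPM in knockdowns. Knockdown replicate 3, with 80 reads, lay far below all other libraries, and the other knockdowns were also below the controls. The gene did not pass (log2 fold change -0.87, SE 0.65, edgeR adjusted p = 0.357), and without knockdown replicate 3 its log2 fold change was -0.48 (edgeR adjusted p = 0.0252). A share of 32.6% of its exon bases lies in other genes, with the largest overlap in Gm29253 on the same strand. Becn1 encodes Beclin 1 and had 44.8, 94.8, 91.4 and 83.5 CPM in controls and 110.4, 79.6, 106 and 109 CPM in knockdowns. Replicate 3 was the lowest of each group (log2 fold change 0.36, SE 0.22, edgeR adjusted p = 0.252), and 43.9% of the exon bases overlap other genes. Atg5, a component of the conjugation system, was the most abundant gene of the group per length in controls but not in knockdowns. It had 29.5, 44, 40 and 38.1 CPM in controls and 31.8, 42.5, 37.2 and 42 CPM in knockdowns. Its groups overlapped fully. Ulk2, Atg5 and Atg7, the first a kinase related to Ulk1 and the last an enzyme of conjugation, had log2 fold changes of 0.15, 0.02 and 0.07 with overlapping groups (edgeR adjusted p = 0.533, 0.95 and 0.748).

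Cargo receptors bind ubiquitinated cargo and ATG8 proteins at the same time. Of the 4, 2 fell and 0 rose, also at an unadjusted p under 0.05 and with DESeq2 and limma-voom, and the median log2 fold change was -0.44. By edgeR 15.1% of all genes tested fell and 13.4% rose. Sqstm1 encodes p62, the receptor of protein aggregates. It had 1296, 982, 935 and 969 CPM in controls and 492, 530.1, 561 and 614 CPM in knockdowns. The groups were far apart, with control replicate 3 above the other controls. Group means were 1045 ± 168 and 549 ± 51.7 CPM (SD, n = 4 each), a 1.90-fold fall (log2 fold change -0.93, SE 0.15, edgeR adjusted p = 0.00182). The gene lies at chr11:50090193-50101654 in GRCm39, and 17.3% of its exon bases lie in other genes, with the largest overlap in Mrnip on the opposite strand.

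Optn encodes optineurin, a receptor for damaged mitochondria and bacteria. It had 39.6, 37.7, 38.1 and 35.1 CPM in controls and 19, 24.7, 21 and 24.6 CPM in knockdowns. The groups were apart with little spread in either. The fall was 1.69-fold (log2 fold change -0.75, SE 0.13, edgeR adjusted p = 0.00279). Both calls held without any single library, with highest adjusted p of 0.00666 for Sqstm1 and 0.0107 for Optn, and that of Gabarapl1 held with a highest adjusted p of 0.05, just under the threshold. Nbr1 and Tax1bp1, receptors that work beside p62, had 136 to 146 and 171 to 205 CPM in controls and 117 to 145 and 159.8 to 193 CPM in knockdowns. Their log2 fold changes were -0.12 and -0.02 (SE 0.11 and 0.12, edgeR adjusted p = 0.445 and 0.924). Of the 10 markers of neurons in general, 9 fell by edgeR and for 8 of them all knockdown values lay below all control values.

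**Figure D4:**
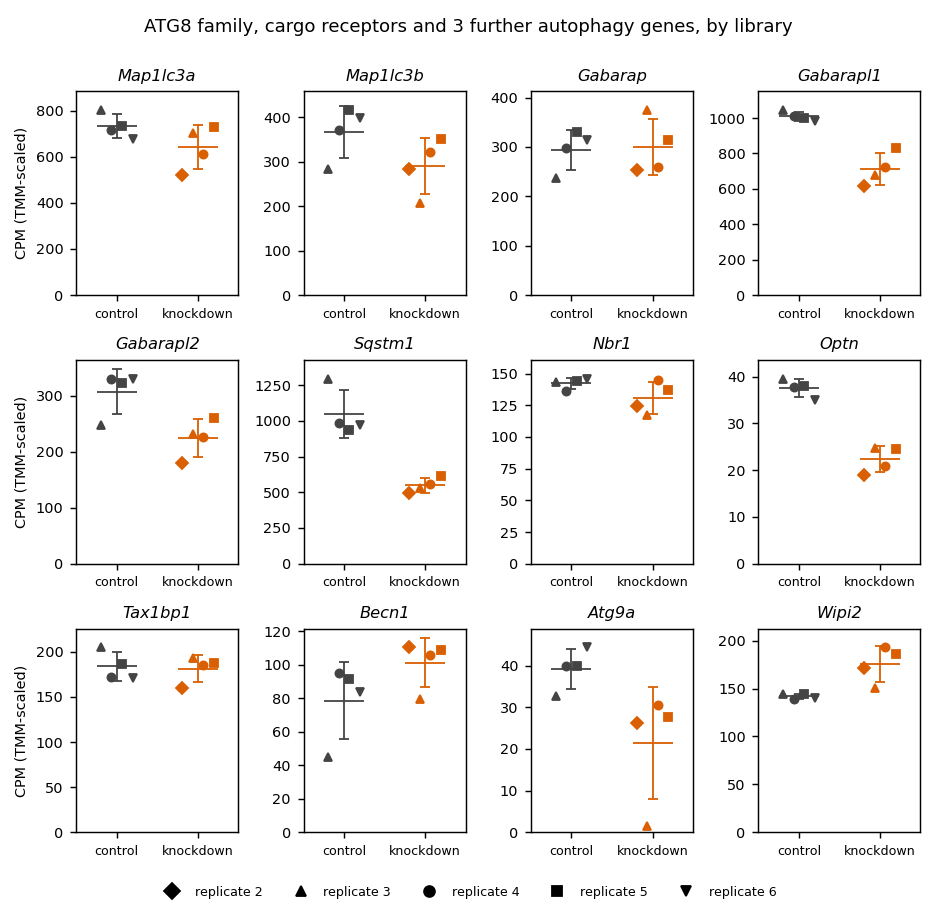
CPM in each library for the ATG8 family, the cargo receptors and Becn1, Atg9a and Wipi2, with controls in grey and knockdowns in orange, the shape giving the replicate number, horizontal lines for the group mean and bars for the SD (n = 4). Gabarapl1, Sqstm1 and Optn lie lower in every knockdown library, Map1lc3a, Gabarap, Nbr1 and Tax1bp1 overlap, and knockdown replicate 3 has 1.45 CPM of Atg9a.

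Without both libraries numbered 3, the comparison was of 3 against 3 libraries, and more of all genes passed (46.8% of 20437, with 23.5% higher and 23.3% lower). In the set 15 genes then rose and 13 fell, 13 and 6 of them lysosomal and 2 and 7 of autophagy. All 15 genes called with 8 libraries kept their direction and their call. This is not a separate check, since the remaining libraries are part of the same 8. The libraries numbered 3 were left out after their values were seen to stand apart, so p-values here may be too small. Genes called in addition as higher were Ctsa, Ctsb, Ctsh, Hexa, Ppt1 and Cln3 among the lysosomal genes and Becn1 and Wipi2 among the autophagy genes. Those called in addition as lower were Gla, Lipa, Map1lc3b, Ulk1 and Atg9a. Hexa had a log2 fold change of 0.88 (edgeR adjusted p = 2.60e-05, SE 0.10) and Ctsh one of 2.15 (edgeR adjusted p = 0.00721, SE 0.49). Several changes were smaller, with log2 fold changes of -0.56 for Gaa, -0.34 for Mcoln1, 0.62 for Lamp2, 0.48 for Npc2 and 0.67 for Ctsl. The medians were 0.28 for the lysosomal and -0.19 for the autophagy genes, against 0.057 for all genes.

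**Figure D5:**
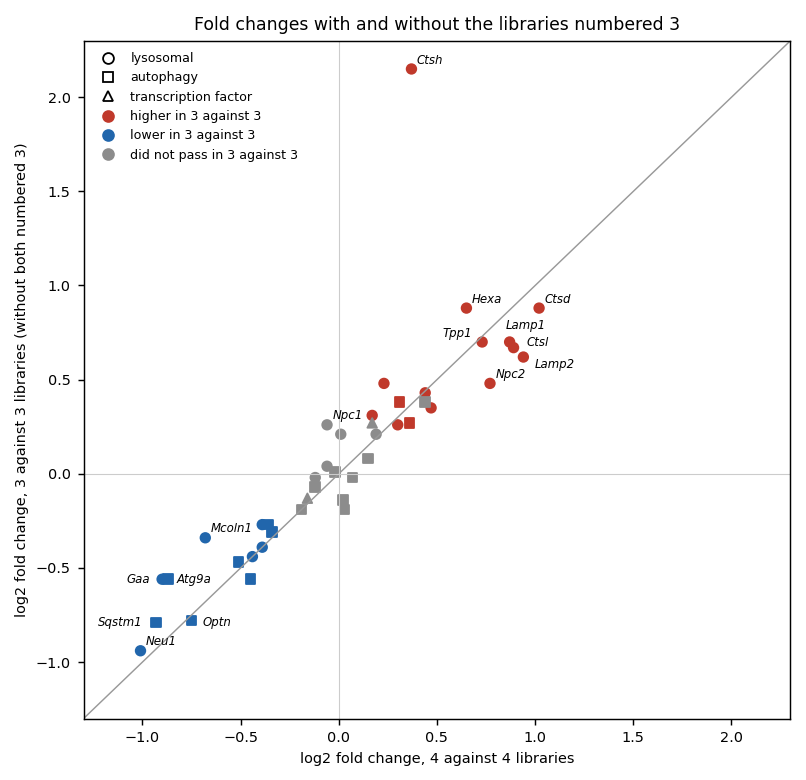
Log2 fold change of the 43 genes with 4 against 4 libraries (horizontal) and with 3 against 3 libraries after both numbered 3 were left out (vertical), with the diagonal marking equal values, shapes for the kind of gene and colours for the call in 3 against 3. Most genes lie near the diagonal, Ctsh lies far above it (0.37 and 2.15), and Gaa and Mcoln1 lie closer to 0 without these libraries.

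Other genes of the same systems were read from 7 lists written with earlier results of these data known. Of 140 tested, 22 rose and 28 fell (15.7% and 20%, against 13.4% and 15.1% of all genes). Among 31 other lysosomal hydrolases and cofactors 9 rose and 3 fell, with a median log2 fold change of 0.26. Fuca1 (alpha-L-fucosidase) rose 2.08-fold from 68 ± 11.6 to 141 ± 10.4 CPM (SD, n = 4, edgeR adjusted p = 0.00096). Ctsc, a dipeptidyl peptidase abundant in immune cells, rose 5.92-fold from 2.66 ± 1.45 to 15.8 ± 5.95 CPM (SD, n = 4, edgeR adjusted p = 0.00173). Hgsnat and Arsa, enzymes of heparan sulfate and sulfatide breakdown, fell 1.85-fold and 1.43-fold (edgeR adjusted p = 0.00122 and 0.0224), and omitting control replicate 6 raised the adjusted p of Arsa to 0.0596.

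Of 20 other lysosomal membrane and transport proteins, 6 rose and 5 fell (30% and 25%, against 13.4% and 15.1% of all genes tested). Laptm5, a protein of immune cell lysosomes, rose 6.23-fold and Cd63, a tetraspanin of late endosomes, 3.68-fold (edgeR adjusted p = 0.000816 and 0.000965). Mfsd12, a cysteine importer, fell 2.23-fold and Slc38a9, the arginine sensor, fell 1.75-fold (edgeR adjusted p = 0.000962 and 0.00926). Of 17 genes that sort enzymes to lysosomes, 2 rose and 3 fell (11.8% and 17.6%). These shares are near the 13.4% and 15.1% of all genes tested. Cln8, a carrier of new enzymes out of the endoplasmic reticulum, rose 1.59-fold and Vps29, a retromer subunit, fell 1.68-fold (edgeR adjusted p = 0.00226 and 0.00164). Gga3, an adaptor of the mannose 6-phosphate receptors, fell 1.60-fold (edgeR adjusted p = 0.0173). Gnptg, a subunit of the enzyme that makes the mannose 6-phosphate tag, rose 1.34-fold (edgeR adjusted p = 0.0183). Omitting control replicate 4 or 6 or knockdown replicate 4 or 5 took Gnptg past the threshold, with adjusted p between 0.064 and 0.0813.

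Of 20 genes of lysosomal nutrient signalling, 2 rose and 3 fell (10% and 15%, near the 13.4% and 15.1% of all genes tested). All 3 that fell encode Rag GTPases, which hold mTORC1 at the lysosome, while the Rag gene Rragd rose. Rragb stood at 114, 184, 154 and 165 CPM in controls and 56, 44.5, 65 and 61.6 CPM in knockdowns. The groups were far apart, a 2.72-fold fall (log2 fold change -1.44, SE 0.18, edgeR adjusted p = 0.000567). Rraga fell 1.84-fold (edgeR adjusted p = 0.000915) and Rragc fell 1.31-fold (edgeR adjusted p = 0.0225), while Rragd rose 1.57-fold (edgeR adjusted p = 0.0186). Omitting knockdown replicate 4 or 5 raised the adjusted p of Rragd to 0.0614 and 0.0619. Lamtor1, the membrane anchor of the complex, rose 1.34-fold (edgeR adjusted p = 0.0358) and missed the threshold when any library other than those numbered 3 was omitted, with adjusted p between 0.0603 and 0.105.

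Of 25 other core autophagy genes, 4 fell (16%, near the 15.1% of all genes tested) and the others did not pass. Atg4d, a protease that processes ATG8 proteins, and Nrbf2, a subunit of the Beclin 1 complex, each fell 1.54-fold (edgeR adjusted p = 0.00382 and 0.00687). Of 13 other selective autophagy receptors, 6 fell (46.2%, against 15.1%) and the others did not pass, with a median log2 fold change of -0.41. The mitophagy receptor gene Fkbp8 had 685, 558, 547 and 578 CPM in controls and 252, 265, 281 and 321 CPM in knockdowns. All knockdowns were lower, by 2.12-fold (log2 fold change -1.08, SE 0.13, edgeR adjusted p = 0.000581). Fundc1, another mitophagy receptor gene, fell 2.06-fold (edgeR adjusted p = 0.00764). Of 14 genes of autophagosome fusion, 3 rose and 4 fell (21.4% and 28.6%, against 13.4% and 15.1% of all genes tested). The SNARE genes Vamp8 and Ykt6 rose 3.71-fold and 1.47-fold (edgeR adjusted p = 0.00172 and 0.00725), and Vps41 and Vps39, subunits of the HOPS tethering complex, fell 1.64-fold and 1.43-fold (edgeR adjusted p = 0.00206 and 0.00678).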

How the data were processed

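Counts per gene for 8 libraries are the authors' deposited whole-number read counts, made with featureCounts 2.0.3 over GENCODE vM30 exons, per the file headers. The command line there sets no strand, and neither reads with several alignments nor reads in overlapping genes entered the counts. Per the submitters' processing notes, reads went through FastQC, Trimmomatic and STAR, with mm10 named as the build. GENCODE vM30 describes GRCm39, and the table's intervals of 38 of the 43 genes miss their GRCm38 intervals, so coordinates are given as GRCm39. Symbols came from a GENCODE annotation by gene ID. Of 56691 IDs, 4618 had none (0.327 to 1.81% of reads).

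From the counts, filterByExpr left 19912 genes, which were scaled by TMM (factors 0.957 to 1.078) and tested with the quasi-likelihood F test of edgeR 4.0.16 (robust, two-sided) in R 4.3.3, 4 libraries against 4, with Benjamini-Hochberg adjustment over all genes and a threshold of 0.05. The SE is the log2 fold change over the square root of F. Members and gene lists were chosen with earlier results of these data known. Any member could be named, with values by library for up to 4 members of a role group with the smallest p and for the most abundant per length, and Ctsh and Atg9a were given by library after their values were seen. Up to 2 genes per direction of each further list were named, by smallest p, and Rragc was added after its values were seen. On simulated data (19912 genes) 2.99% of 67 genes changed 1.5-fold, 29.9% of 67 changed 2-fold and 72.7% of 66 changed 4-fold were called, and 2 of 72 calls were of unchanged genes. Only these genes were changed there, whereas 5668 of 19912 were called in the libraries themselves. The adjusted p was thus harder to pass in the simulation, and its recovery does not describe this comparison. Same-group libraries were not duplicates (chi-square per degree of freedom 22.9 to 420). Results were recomputed with upper quartile or RLE scaling, no filter, a filter of 1 CPM in 4 libraries, DESeq2 1.42.0, limma-voom (limma 3.58.1), a replicate block, a non-neuronal marker score as covariate, a threshold of 0.01, and leaving out libraries. Near copies were stretches of at least 150 bases at 95% identity or more.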

Additional observations from a re-analysis of the deposited data

Results flagged for a closer look

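In 12 of 86 groups of 4 libraries, 1 library lay far from the other 3 by Dixon's test, where chance gives about 1 in 20 groups. In 6 of them it was control replicate 3 and in 6 knockdown replicate 3. Control replicate 3 was high for Ctsh (14 CPM, others 0.501 to 1.74), Hexa (108, others 39.1 to 47.1), Mcoln1 (112, others 52.6 to 59.4) and Sqstm1 (1296, others 935 to 982). It was low for Gabarapl2 (247 CPM, others 322 to 330.3) and Ulk2 (52.1, others 78.4 to 81.3). Knockdown replicate 3 was high for Npc2 (285 CPM, others 172 to 184). It was low for Lipa (16.5 CPM, others 22 to 22.9), Ppt1 (99.9, others 141 to 147), Tpp1 (69.9, others 114 to 119), Becn1 (79.6, others 106 to 110.4) and Atg9a (1.45, others 26.2 to 30.6). Control replicate 3 also held 1016 CPM of vascular markers, and the part of other cells in these values was not tested.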

How the results depend on the processing

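The 43 genes gave 7 higher and 8 lower. Upper quartile scaling gave 5 lower, with 2 lysosomal genes lower and 1 autophagy gene higher, and moved the median of all genes by 0.089. No filter gave 4 higher, all 4 lysosomal, and the stricter filter and DESeq2 each gave 1 autophagy gene higher. A threshold of 0.01 gave 3 higher (3 lysosomal) and 3 lower (1 lysosomal, 2 of autophagy), and 1116 and 1563 of all genes. The marker score as covariate gave 0 genes in each direction, in every list and overall. Without both libraries numbered 3 there were 15 higher and 13 lower, 13 lysosomal higher, 2 autophagy higher, 7 autophagy lower, and 4805 and 4760 of all genes.

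Deviations from group means had correlations of 0.104, 0.0987 and 0.0422 between libraries of the same number (3, 4 and 5). Between libraries of differing numbers they ran from -0.103 to 0.0808. The labels do not say whether the numbers pair the libraries, and these values do not settle it. With the replicate block 2 members were higher and 1 lower, 2 and 1 of them lysosomal and 0 autophagy genes lower, and 480 and 778 of all genes. That fit leaves few degrees of freedom.

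Leaving out 1 library gave 4 to 10 members higher and 4 to 8 lower, 4 to 10 lysosomal higher and 1 to 4 lower, 0 to 1 autophagy higher and 3 to 4 lower, and 1684 to 3723 and 2140 to 3475 of all genes.

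Signs turned only for uncalled genes, except Gabarapl2 (log2 fold change 0.30 with the covariate). The covariate also turned Ctsh (-3.25), Hexa (-0.40), Grn (-0.59), Cln3 (-0.49), Tfeb (-0.08), Tfe3 (0.13), Map1lc3a (0.13), Map1lc3b (0.07), Wipi1 (-0.02) and Tax1bp1 (0.05). Without both libraries numbered 3 the values were 0.04 for Glb1, 0.26 for Npc1, -0.19 for Gabarap, -0.14 for Atg5, -0.02 for Atg7 and 0.01 for Tax1bp1. Upper quartile scaling gave 0.03 for Glb1, 0.02 for Npc1 and 0.07 for Tax1bp1. No filter gave -0.02 for Grn, -0.01 for Gabarap and -0.03 for Atg5. Tax1bp1 was 0.0019 with RLE, 0.01 with the stricter filter, 0.0018 with DESeq2 and 0.01 with the replicate block. Leaving out 1 library gave -0.02 to 2.29 for Ctsh, -0.17 to 0.10 for Glb1, -0.14 to 0.26 for Grn, -0.24 to 0.18 for Npc1, -0.09 to 0.09 for Gabarap, -0.09 to 0.08 for Atg5 and -0.07 to 0.03 for Tax1bp1. The cause of these changes was not tested. Changes under 2-fold were seldom recovered in simulated data with 4 libraries a group, in which far fewer genes changed than were called here. Recovery in this comparison was therefore not measured, and a gene that did not pass may still differ.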
